A study of Mus musculus with 16 samples.

Results

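The mitochondrial ribosomal protein genes were taken as all genes whose symbol starts with Mrpl or Mrps and whose transcripts the deposited values class as protein coding. This rule found 77 genes, 48 named Mrpl and 29 named Mrps, with 258 transcripts, among 14785 protein coding genes and 80137 transcripts in all. The expression level of a gene was the sum of the FPKM of these transcripts, where FPKM is a fragment count corrected for transcript length and for the depth of the library. RNA was from the hippocampus of 16 male C57BL/6 wild-type mice aged 3 months, taken from both sides together, and each mouse gave 1 library. Mice of the homecage group (HC) had neither shocks nor escape trials. Control (Ctrl) mice had 30 escape trials with shocks of 0.4 mA and no inescapable shocks. The learned helpless (LH) group and the group that did not become helpless, non-learned helpless (NLH), had 180 inescapable shocks of 0.4 mA before 30 escape trials and were told apart by how they escaped. Escape ended the shock of a trial, so LH and NLH mice had the same inescapable shocks but not the same time under shock in the trials. Each group had 4 mice, and the spread reported here is the spread between mice. In RNA of a whole tissue, fewer cells of a type and less RNA per cell cannot be told apart.

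Mitochondria carry their own small genome, which encodes a few subunits of the respiratory chain, and a ribosome of their own translates these mRNAs. The RNAs of this mitoribosome come from the mitochondrial genome, whereas its proteins are encoded in the nucleus, made in the cytosol and imported. The large subunit joins the amino acids and the small subunit decodes the mRNA. Many of the proteins have a counterpart in the bacterial ribosome and the others were gained in the mitochondrial lineage. Neurons depend on respiration for ATP, and loss of single mitoribosomal proteins is a known cause of inherited mitochondrial disease. By their roles in the ribosome, 30 members were in the large subunit with a bacterial counterpart, 20 were in the large subunit and specific to mitochondria, 16 were in the small subunit with a bacterial counterpart and 10 were in the small subunit and specific to mitochondria. Mrps36 formed a class of its own, because its protein is now assigned to the oxoglutarate dehydrogenase complex of the citric acid cycle.

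The promoters of these genes are shown because many share short sequence elements that the selection by name did not use. The RefSeq promoter table (GRCm38.p6) held the window from 250 bases before to 50 bases after the start of 68 members, and 9 members had no entry. Both strands were searched for 4 elements, and matches could overlap. The ETS-type element CCGGAAG, the core bound by GABP and other ETS factors, was in 25 of the 68 windows (36.8%), compared with 17.3% of the windows of 11253 measured protein coding genes. The NRF1-type element, GCGC and TGCGC separated by any base, was in 13 (19.1%, compared with 10.0%), and the YY1-type element AAGATGGCG in 8 (11.8%, compared with 2.96%). At least 1 of these was in 40 members (58.8%, compared with 27.1%), and 6 members held 2 or more. The cAMP response element TGACGTCA was in 2 members (2.94%, compared with 3.30%). Of all 27025 windows in the table, 9.93% held the ETS-type, 5.19% the NRF1-type, 1.64% the YY1-type and 2.03% the cAMP response element. The YY1-type element lay only after the start in 6 of the 8 members that held it, and in 57.4% of the measured genes that held it. A match is a match of letters and does not show that a factor was bound.

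Windows of 100 bases are given for 5 members whose levels are described below, 5′ to 3′ on the strand of the gene, with the element in capitals. They end at the last base before the RefSeq start, or 19 bases before it for Mrpl9 and Mrps18a. The NRF1-type element is marked for Mrpl9 (chr3:94443218-94443317, plus strand) and Mrpl45 (chr11:97315616-97315715, plus strand), where it reads in this form on the opposite strand. The ETS-type element is marked for Mrpl34 (chr8:71464826-71464925, plus strand), Mrps18a (chr17:46110886-46110985, plus strand) and Mrps22 (chr9:98601680-98601779, minus strand). All positions are of GRCm38.p6 and none of these windows overlaps an annotated exon.
Mrpl9: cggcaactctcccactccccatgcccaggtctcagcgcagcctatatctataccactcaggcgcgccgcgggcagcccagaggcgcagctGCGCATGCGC
Mrpl45: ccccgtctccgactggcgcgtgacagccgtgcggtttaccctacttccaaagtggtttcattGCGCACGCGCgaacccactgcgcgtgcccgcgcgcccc
Mrpl34: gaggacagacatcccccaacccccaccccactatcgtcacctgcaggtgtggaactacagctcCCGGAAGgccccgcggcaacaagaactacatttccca
Mrps18a: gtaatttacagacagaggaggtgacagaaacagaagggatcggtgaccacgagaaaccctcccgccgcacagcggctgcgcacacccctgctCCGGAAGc
Mrps22: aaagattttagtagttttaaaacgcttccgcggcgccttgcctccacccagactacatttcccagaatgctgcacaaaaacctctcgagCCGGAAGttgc

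The members also lay close to other genes. In GENCODE vM21, the start of 23 of the 77 members (29.9%) lay within 1000 bases of the start of a protein coding gene on the opposite strand, compared with 10.5% of 14428 measured protein coding genes. Mrps12 and Sars2, which encodes the mitochondrial seryl-tRNA synthetase, started 172 bases apart. Mrpl49 and Fau, a cytosolic ribosomal protein gene, started 59 bases apart, and Mrps18b and Ppp1r10 45 bases apart. Mrpl36 and Ndufs6, which encodes a subunit of respiratory complex I, overlapped at their starts (distance -29 bases). These neighbours were named after the list had been seen. The members lay on 17 chromosomes, with 10 on chromosome 11 and 8 on chromosome 17.

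Some libraries stood apart before any comparison was made. Depth, estimated from the steps between FPKM values because read counts were not used here, was 20180000 to 38060000 fragments per mouse, and LH replicate 4 was the shallowest. Of the 80137 transcripts, 4872 to 7352 were at 0 in 14 mice, 10846 in LH replicate 3 and 15504 in LH replicate 4. Markers of excitatory hippocampal neurons were measured for 8 of 8 genes in summed FPKM of 336 to 543 per mouse, and those of striatum summed to 10.3 to 22.6. Markers of choroid plexus, a tissue next to the hippocampus, summed to 1.68 to 94.4 in LH mice, 3.77 to 66.2 in NLH mice, 16.8 to 53.7 in Ctrl mice and 3.22 to 39.5 in HC mice. Their part in the results was not tested. Results that rest on LH replicates 3 and 4 are given below with and without them.

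The members were expressed at moderate levels that lay close together. In HC mice the median of the 77 genes was 4.61 FPKM, with quartiles of 2.91 and 7.73, compared with 2.51 for all protein coding genes. Of the members, 67 lay above that median, 64 lay between 2 and 10 FPKM, and 75 were above 0 in every mouse. This level corresponds to a median of 169 estimated fragments per member and mouse, on an assumed fragment length of 200 bases, and 68 members had a median of at least 50. Mrps36 had the fewest, with a median of 9.97. Genes of the small subunit were expressed at a median of 5.84 FPKM (interquartile range 4.04 to 8.38, 26 genes) and those of the large subunit at 4.05 (2.69 to 6.85, 50 genes). By role, the HC median was 7.40 for the small subunit with a bacterial counterpart, 4.86 for the small subunit specific to mitochondria, 4.69 for the large subunit with a bacterial counterpart and 3.96 for the large subunit specific to mitochondria. The ranges of all these classes overlapped. The leading transcripts of the members were short, with a median of 1068 bases compared with 2600 bases for all protein coding genes.

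**Figure D1:**
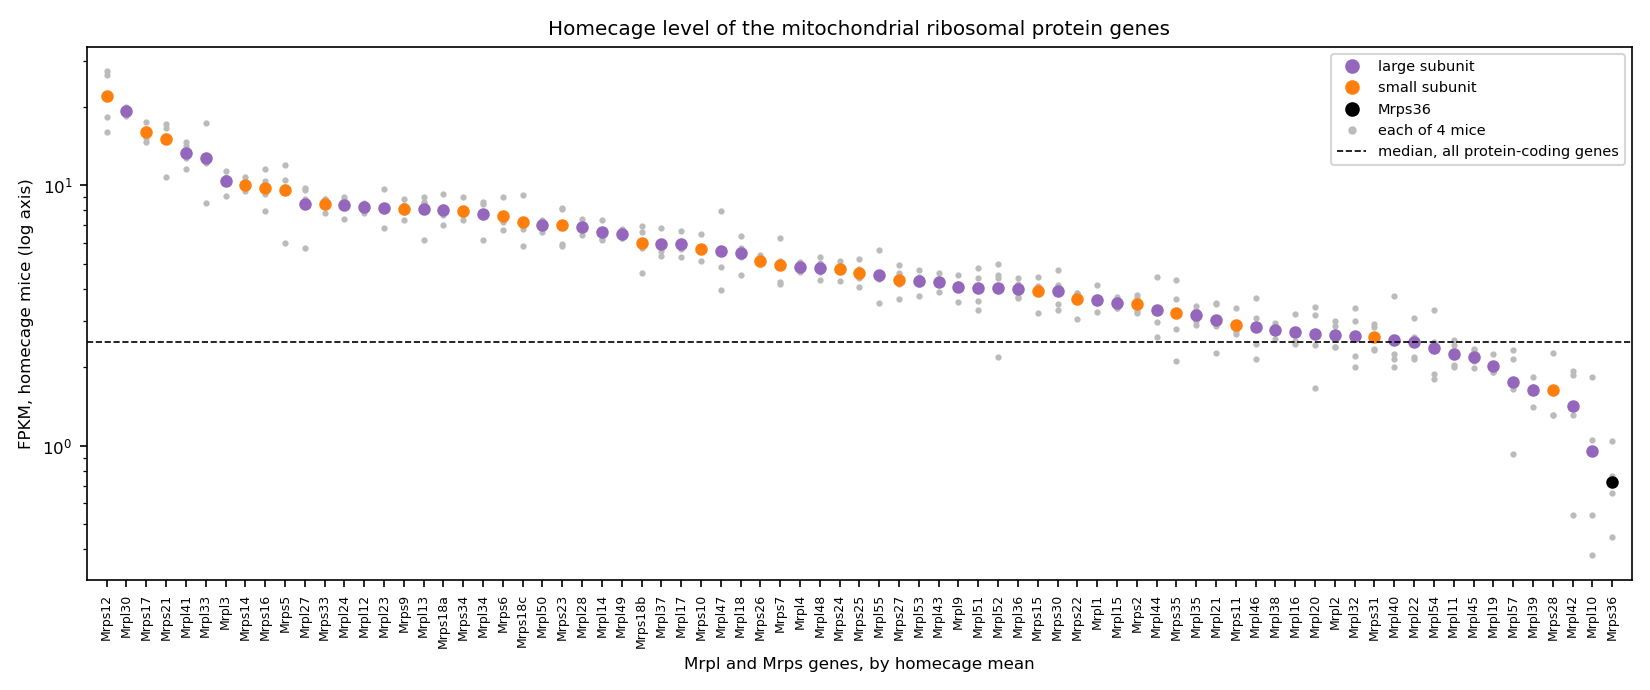
FPKM of the 77 members in HC mice, on a logarithmic axis, in order of their mean. Large points are means of 4 mice, colored by subunit, small points are mice, and the dashed line marks the median of all protein coding genes, 2.51 FPKM, which 67 members exceeded.

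The highest level was that of Mrps12 (chr7:28739641-28741820, minus strand), the counterpart of a bacterial protein of the decoding centre. Its HC mice had 27.4, 18.2, 16.02 and 26.4 FPKM (22.0 ± 5.7, SD, n = 4). However, 89.7% of this came from ENSMUST00000165246.1, a transcript of 380 bases that GENCODE classes as a processed transcript without a coding sequence. That transcript alone had 25.01, 15.3, 15.5 and 23.6 FPKM in the HC mice. Over transcripts classed as coding, Mrps12 had 2.15 ± 1.13 FPKM and was at rank 56 instead of rank 1. The deposited values call all of these transcripts protein coding, because they give the class of the gene and not that of the transcript.

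The next genes were Mrpl30 (19.3 ± 0.65 FPKM), Mrps17 (15.9 ± 1.31), Mrps21 and Mrpl41 (13.2 ± 1.39), which held the first 4 ranks when coding classes alone were summed. Mrpl30, Mrps17 and Mrps21 have bacterial counterparts, and Mrpl41 is specific to mitochondria. The HC mice had 19.9, 18.4, 19.6 and 19.2 FPKM of Mrpl30, all above the 17.5, 16.4, 14.6 and 15.1 FPKM of Mrps17. Mrps21 had 16.6, 10.8, 15.5 and 17.1 FPKM and overlapped with both Mrps17 and Mrpl41, and Mrps12 overlapped with Mrpl30, so the order of these neighbours was within the spread between mice. Processed pseudogenes of at least 90% identity over at least 50% of the transcript are annotated for 9 members, among them Mrpl30, Mrps21, Mrpl42 and Mrps18c, and fragments of these genes could be divided between the copies.

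GENCODE classed 135 of the 258 transcripts as protein coding, 63 as retained intron, 44 as processed transcript and 16 as targets of nonsense-mediated decay. A member had a median of 3 transcripts and at most 10, and 17 members had 1. The leading transcript was of a coding class in 69 members and of another class in 8, namely Mrpl15, Mrpl32, Mrpl47, Mrps12, Mrps14, Mrps24, Mrps26 and Mrps35, which were listed after their values had been seen. Mrpl32 had no transcript of a coding class. With coding classes alone, the HC median of the members was 3.63 FPKM and the range 0.338 to 18.7.

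The lowest levels were those of Mrps36, Mrpl10, Mrpl42, Mrps28 and Mrpl39, with HC means of 0.727 to 1.64 FPKM. For some of these, most of the signal of the locus was carried by assembled transcripts that overlap the gene but have no gene name in the deposited values. There were 41 such transcripts at 30 member loci, and at 24 loci they could be given to a single member. Mrpl10, whose protein forms the base of the ribosomal stalk (chr11:97041560-97049213, plus strand), had 0.380, 1.06, 1.84 and 0.543 FPKM under its name in HC, but the unnamed transcripts of its locus had 9.36, 8.08, 6.36 and 8.80 FPKM. These unnamed transcripts made up 89.5% of the locus, and with them Mrpl10 was at rank 12 of 77 instead of rank 76. Mrps36 (chr13:100735955-100744659, minus strand) had 0.657, 0.765, 0.447 and 1.04 FPKM under its name and 6.79, 5.26, 6.77 and 6.11 in unnamed transcripts. Its rank was 27 with them and 77 without. With unnamed transcripts added at all 24 loci, the HC median was 4.87 FPKM and the lowest level 1.63.

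Mrps28, in the small subunit, differed from these. Its unnamed transcripts were at or near 0 in 15 mice and at 16.8 FPKM in LH replicate 4, where its named transcript was at 0. In the other 15 mice the named transcript had 1.31 to 2.70 FPKM. The locus of Mrpl23, named after its values had been seen, had 9.49 FPKM of unnamed transcripts in LH replicate 4 and at most 0.601 in the others.

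**Figure D2:**
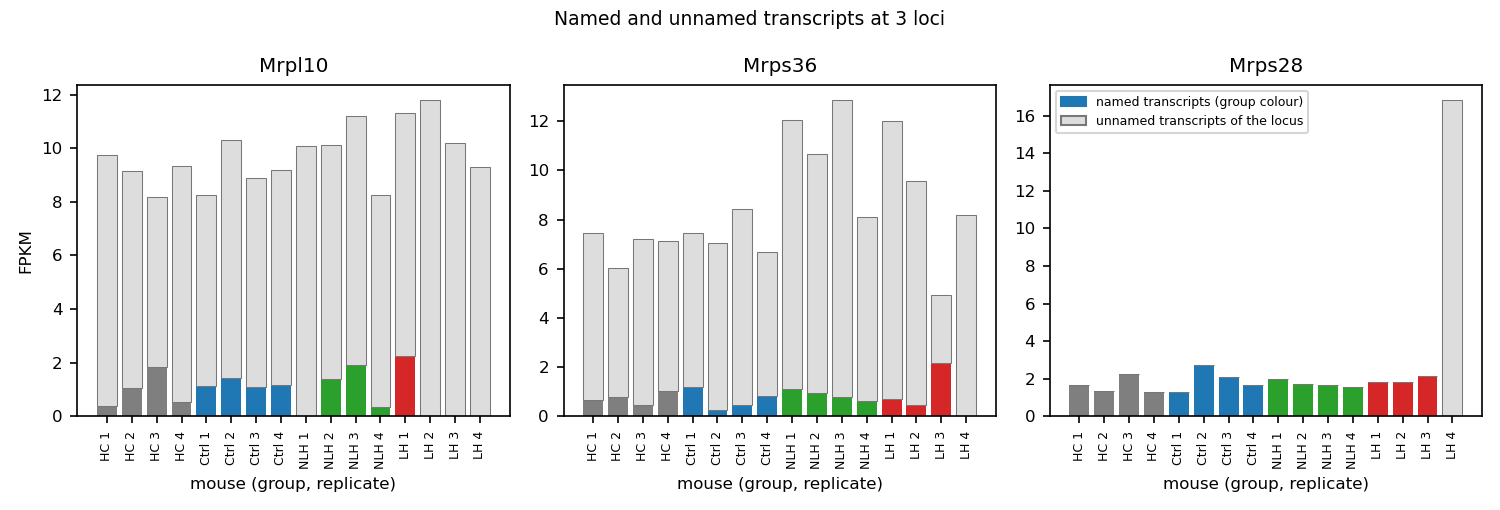
FPKM per mouse of the named transcripts (colored) and of the unnamed assembled transcripts (light gray, stacked on top) at the loci of Mrpl10, Mrps36 and Mrps28. Unnamed transcripts carried most of the signal of Mrpl10 and Mrps36, and the 16.8 FPKM at Mrps28 in LH replicate 4 were unnamed.

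The mean summed level of the members was highest in NLH mice, and all 4 groups overlapped. It was 461, 442, 408 and 467 FPKM in HC (444 ± 26.6, SD, n = 4) and 397, 459, 449 and 423 in Ctrl (432 ± 27.8). It was 461, 511, 539.7 and 449.7 in NLH (490.4 ± 42.2) and 521, 534, 437 and 358 in LH (463 ± 82.1). The NLH mice overlapped with both HC and Ctrl. The LH mice spanned the values of HC and Ctrl and overlapped with NLH, of which replicate 3 lay above all LH mice. As a share of the FPKM of all protein coding genes, the members took 0.455% to 0.470% in NLH mice and 0.418% to 0.444% in Ctrl mice, without overlap. The HC mice (0.440% to 0.464%) overlapped with both NLH and Ctrl. The LH mice (0.426% to 0.450%) overlapped with Ctrl and HC and all lay below the NLH mice. After scaling by median-ratio size factors, which ranged from 0.816 to 1.21, the sums were 465 ± 8.16 for NLH, 456 ± 12.1 for HC, 447 ± 9.33 for LH and 434 ± 14.6 for Ctrl, with overlap between NLH and HC. The scaled LH mice were thus as close to each other as those of the other groups. The summed levels of the large subunit were 258 ± 17.0, 257 ± 18.05, 285 ± 23.9 and 262 ± 61.8 FPKM in HC, Ctrl, NLH and LH, and those of the small subunit 186 ± 11.4, 174 ± 13.4, 205 ± 18.4 and 199.8 ± 20.4.

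**Figure D3:**
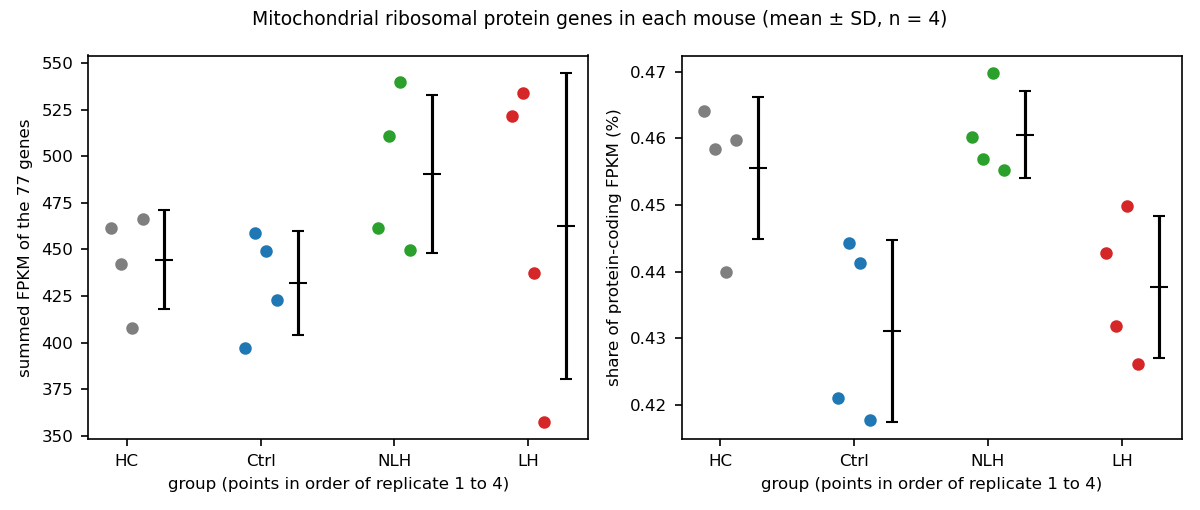
Summed FPKM of the 77 members in each mouse (left) and their share of the FPKM of all protein coding genes in percent (right), by group, with axes that do not start at 0. Points are mice and bars are means ± SD (n = 4), and the NLH shares of 0.455% to 0.470% all lay above those of Ctrl.

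For each comparison, differences are given on the scale of log2(FPKM + 0.1), as fitted with limma over the 16 mice, which understates changes of low genes. No member passed an adjusted p of 0.05 over all 14785 protein coding genes in any of the 4 comparisons. Among all genes, 0.00676% passed in LH vs. NLH, 0.0541% in LH vs. Ctrl, 0.0% in NLH vs. Ctrl and 0.0% in Ctrl vs. HC. The counts below therefore use the unadjusted p of 0.05 and describe differences that do not hold after adjustment. The median half-width of the 95% interval of a member was 0.42 on the log2 scale, so differences smaller than this could not be detected for most members. A p above the threshold does not show that levels were equal. Comparisons against Ctrl share the same 4 Ctrl mice, and those with LH or NLH share these mice likewise.

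**Figure D4:**
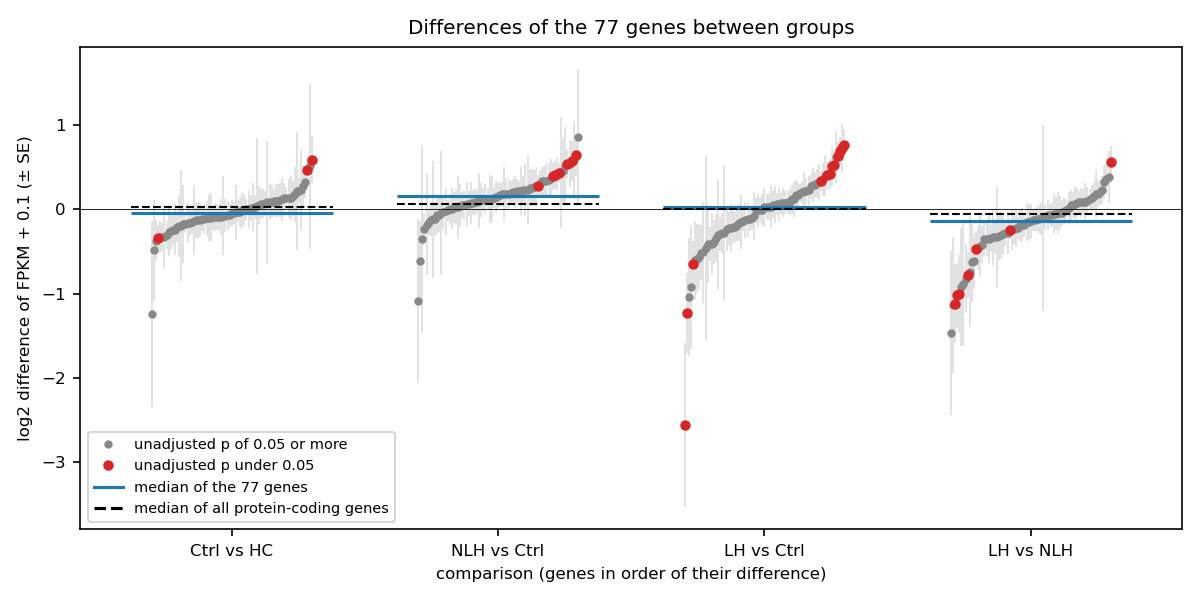
The log2 difference of each of the 77 members in the 4 comparisons, in order of size, with lines for ± SE, members at an unadjusted p under 0.05 in red, and horizontal lines for the median of the members (blue) and of all protein coding genes (dashed). The members had medians of -0.05, 0.16, 0.02 and -0.14 in Ctrl vs. HC, NLH vs. Ctrl, LH vs. Ctrl and LH vs. NLH, compared with 0.03, 0.07, 0.01 and -0.05 for all genes.

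Ctrl vs. HC compares mice that were handled, placed in the shuttle box and given escape trials with undisturbed mice, and the parts of this exposure cannot be told apart. The members differed little. At an unadjusted p of 0.05, 2 were higher and 1 lower, 3.90% in all compared with 2.64% of all genes (1.66% higher and 0.974% lower). The count was 1 without HC replicate 1, HC replicate 2 or Ctrl replicate 2, where 1.88% to 2.18% of all genes passed. Groups did not overlap for 2 members that were higher (3.87% of all genes) and 1 that was lower (1.96%). The median difference was -0.05 compared with 0.03 for all genes, 32 of 77 members were higher (41.6%, compared with 56.9% of all genes), and 74 lay within 0.5 of 0. With size factors the median was -0.08 compared with 0.00, and 27 members were higher (50.1% of all genes). With only the 2 groups fitted, 10 members passed unadjusted (13.0%, compared with 9.67% of all genes).

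Mrpl45, a protein of the large subunit specific to mitochondria that lies near the exit tunnel (chr11:97315716-97329920, plus strand), had 2.35, 2.33, 1.98 and 2.11 FPKM in HC and 3.09, 3.11, 3.06 and 3.01 in Ctrl. All Ctrl mice were above all HC mice, and the difference was 0.47 ± 0.15 (SE, limma adjusted p = 1.0). Its leading coding transcript of 2431 bases had 2.08, 2.33, 1.98 and 2.11 FPKM in HC and 1.91, 1.95, 2.69 and 2.27 in Ctrl, which overlapped. The separation lay in the transcript of 493 bases, ENSMUST00000132168.1, which had 0.274 FPKM in 1 HC mouse and near 0 in the others but 1.18, 1.16, 0.369 and 0.746 in Ctrl.

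Mrpl38, also of the large subunit, had 2.95, 2.89, 2.56 and 2.73 FPKM in HC and 2.67, 7.20, 3.85 and 4.37 in Ctrl, with a difference of 0.59 ± 0.27. The groups overlapped and Ctrl replicate 2 was far above the rest. Without that mouse the difference was 0.34 ± 0.26. Mrps14, the member with a lower level at this threshold, had 9.76, 9.82, 9.49 and 10.8 FPKM in HC and 6.39, 6.73, 9.64 and 9.08 in Ctrl (difference -0.34 ± 0.16). Its leading transcript, 79.5% of the gene, is classed as a target of nonsense-mediated decay, and over coding classes alone the difference was 0.38 in the other direction. Mrps16 (-0.33 ± 0.17), Mrps30 (-0.31 ± 0.16) and Mrps11 (0.32 ± 0.19) did not pass the unadjusted threshold. Mrps22 was higher in all Ctrl mice (4.10 to 4.48 FPKM) than in all HC mice (3.05 to 3.86), and Mrps34 was lower (6.67 to 7.32, compared with 7.36 to 9.03).

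NLH vs. Ctrl asks what differed in mice that had inescapable shocks and still escaped. More members were higher in NLH than lower, 62 of 77 (80.5%, compared with 63.9% of all genes). The median difference was 0.16, compared with 0.07 for all genes. With size factors it was 0.09 compared with -0.00, and 51 members were higher (49.3% of all genes). At an unadjusted p of 0.05, 7 members were higher and 0 lower, 9.09% compared with 5.96% of all genes (4.99% higher and 0.967% lower). With 1 mouse left out the count ranged from 3 (without Ctrl replicate 1 or NLH replicate 2) to 14 (without LH replicate 4, which enters only through the shared spread), where 4.02%, 4.38% and 10.02% of all genes passed. Groups did not overlap for 3 members that were higher (5.46% of all genes) and 1 that was lower (1.25%). By role, 4 of 16 in the small subunit with a bacterial counterpart, 1 of 10 in the small subunit specific to mitochondria, 2 of 20 in the large subunit specific to mitochondria and 0 of 30 in the large subunit with a bacterial counterpart passed. The role medians were 0.24, 0.14, 0.14 and 0.10 in that order. Of the marker lists, 6 of 7 endothelial genes had higher estimates in NLH (median 0.26, none past the unadjusted threshold), with sums of 24.0 to 26.5 FPKM in Ctrl and 26.3 to 29.7 in NLH. Excitatory neuron markers summed to 443 to 502 in Ctrl and 396 to 471 in NLH (median -0.05). The part of these cell types in the differences was not tested.

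Mrps33, a small-subunit protein specific to mitochondria (chr6:39801804-39810988, minus strand), had the smallest p. It had 7.09, 6.98, 8.23 and 7.82 FPKM in Ctrl and 10.7, 10.1, 11.4 and 8.80 in NLH. All NLH mice were above all Ctrl mice, with a difference of 0.44 ± 0.11 (limma adjusted p = 0.375) and an exact two-sided permutation p of 0.0286, the smallest that 4 against 4 mice allow. In LH the gene had 9.45, 9.37, 8.10 and 7.64 FPKM, overlapping with both Ctrl and NLH, and the difference LH vs. NLH was -0.24 ± 0.11.

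Mrps16, of the small subunit (chr14:20389304-20393634, minus strand), had 6.58, 7.51, 8.29 and 8.47 FPKM in Ctrl and 13.9, 11.8, 11.6 and 8.32 in NLH. NLH replicate 4 lay within the Ctrl values and the other 3 NLH mice lay above them (difference 0.54 ± 0.17, limma adjusted p = 0.509). The HC mice had 9.23, 11.5, 7.92 and 10.4 FPKM, so NLH and HC overlapped. Mrps16 has 1 named transcript, of 2572 bases, and the unnamed transcripts of its locus had 0.249 to 2.02 FPKM over the 16 mice.

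Mrps18a, Mrps18b and Mrps18c are named for the same bacterial protein but encode distinct proteins, which take different places in the mitoribosome. Mrps18c, the counterpart of the bacterial protein, had 5.28, 7.36, 6.50 and 3.51 FPKM in Ctrl and 9.40, 10.1, 8.56 and 6.69 in NLH (difference 0.64 ± 0.24, limma adjusted p = 0.669). NLH replicate 4 overlapped with Ctrl. Mrps18a, which lies in the large subunit, had 6.85, 8.84, 8.19 and 8.59 in Ctrl and 9.45, 11.8, 8.47 and 8.25 in NLH, and the groups overlapped. Mrps18b had 6.06, 4.56, 6.31 and 5.19 in Ctrl and 5.33, 6.21, 6.47 and 4.53 in NLH, with no visible shift.

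Mrpl14, a large-subunit protein at the interface to the small subunit (chr17:45686322-45698495, plus strand), went the other way. Ctrl mice had 8.51, 8.94, 7.03 and 6.76 FPKM and NLH mice 5.22, 4.92, 5.93 and 4.25, all below Ctrl, with HC mice at 6.23, 6.71, 7.32 and 6.14. The difference was -0.61 ± 0.48 (limma adjusted p = 0.968; exact permutation p = 0.0286). The LH mice, which share the estimate of the spread, had 6.05, 7.75, 3.29 and 0.661 FPKM. With LH replicates 3 and 4 left out and size factors computed without them, the difference was -0.69 (limma adjusted p = 0.0365), and Mrpl14 was the only member to pass in NLH vs. Ctrl under any alternative tried.

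Mrpl40, a large-subunit protein specific to mitochondria, had 2.59, 2.62, 1.67 and 2.59 FPKM in Ctrl and 2.80, 3.37, 4.45 and 3.09 in NLH, without overlap. Mrpl51, in the same subunit and named after its values had been seen, had 3.31, 4.39, 3.26 and 3.30 in Ctrl and 4.87, 6.29, 4.72 and 5.52 in NLH, also without overlap. The unnamed transcripts at the 24 loci summed to 25.2 to 28.5 FPKM in Ctrl and 30.4 to 32.9 in NLH. Counting them, the locus of Mrps36 had 7.45, 7.05, 8.43 and 6.67 FPKM in Ctrl and 12.0, 10.6, 12.9 and 8.10 in NLH, a difference of 0.54 ± 0.20 (limma adjusted p = 0.627) with overlap at NLH replicate 4. Mrpl10 had a difference of -1.09 ± 0.98 by its named transcript and of 0.11 ± 0.11 with unnamed transcripts added. The first value was -0.22 without NLH replicate 1 and -1.67 without NLH replicate 3.

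LH vs. Ctrl asks what differed in mice that had become helpless. Higher and lower members were balanced, with 39 of 77 higher (50.6%, compared with 52.1% of all genes) and medians of 0.02 and 0.01. At an unadjusted p of 0.05, 9 members were higher and 3 lower, 15.6% in all compared with 11.8% of all genes (8.18% higher and 3.58% lower). The count was 19 without LH replicate 2, where 16.5% of all genes passed. Groups did not overlap for 4 members that were higher, Mrpl53, Mrps16, Mrps30 and Mrps5 (4.84% of all genes), and for 0 that were lower (1.12%). By role, 2 of 30 and 3 of 20 in the large subunit and 2 of 16 and 2 of 10 in the small subunit were higher, with bacterial counterparts given before those specific to mitochondria. Without LH replicates 3 and 4 the median was 0.28, compared with 0.23 for all genes, and 7 members passed the adjusted threshold, as did 8.10% of all genes.

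Mrps16 had 11.5, 10.99, 16.4 and 11.8 FPKM in LH, all above the 6.58 to 8.47 of Ctrl. The difference was 0.70 ± 0.17 (95% interval 0.35 to 1.05, limma adjusted p = 0.130, exact permutation p = 0.0286). The LH and NLH mice overlapped, with a difference LH vs. NLH of 0.15 (95% interval -0.20 to 0.51). The HC mice, at 7.92 to 11.5, lay between Ctrl and LH and overlapped with both.

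Mrps5, a core protein of the small subunit (chr2:127587222-127606829, plus strand), had 5.89, 7.40, 8.57 and 7.77 FPKM in Ctrl and 14.4, 11.4, 11.8 and 13.0 in LH. All LH mice were above all Ctrl mice (0.77 ± 0.19, limma adjusted p = 0.130, exact permutation p = 0.0286). They were also above all NLH mice, which had 9.15, 9.84, 6.43 and 9.10 FPKM (0.56 ± 0.19, limma adjusted p = 0.566). The HC mice had 10.4, 12.0, 9.87 and 5.98 FPKM, of which replicate 2 lay within the LH values. The leading transcript of the gene, with 65.4% of its FPKM, is only 424 bases long. It had 3.96, 3.26, 5.94 and 4.51 FPKM in Ctrl and 10.7, 7.52, 7.83 and 11.6 in LH (limma adjusted p = 0.189 over all transcripts).

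Mrpl53, of the large subunit (chr6:83109040-83109939, plus strand), had 2.59, 4.32, 4.52 and 4.74 FPKM in Ctrl and 6.79, 6.76, 6.13 and 5.20 in LH, without overlap (0.64 ± 0.17, limma adjusted p = 0.147). It lies inside the annotated read-through gene Gm42688, which holds its whole sequence, so fragments could be divided between these genes. Mrps30, which belongs to the large subunit despite its name, had 2.59, 3.25, 3.26 and 3.44 FPKM in Ctrl and 4.47, 4.05, 4.37 and 3.80 in LH, also without overlap (0.41 ± 0.16, limma adjusted p = 0.333). The 4.13, 4.73, 3.49 and 3.30 FPKM of its HC mice overlapped with both.

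**Figure D5:**
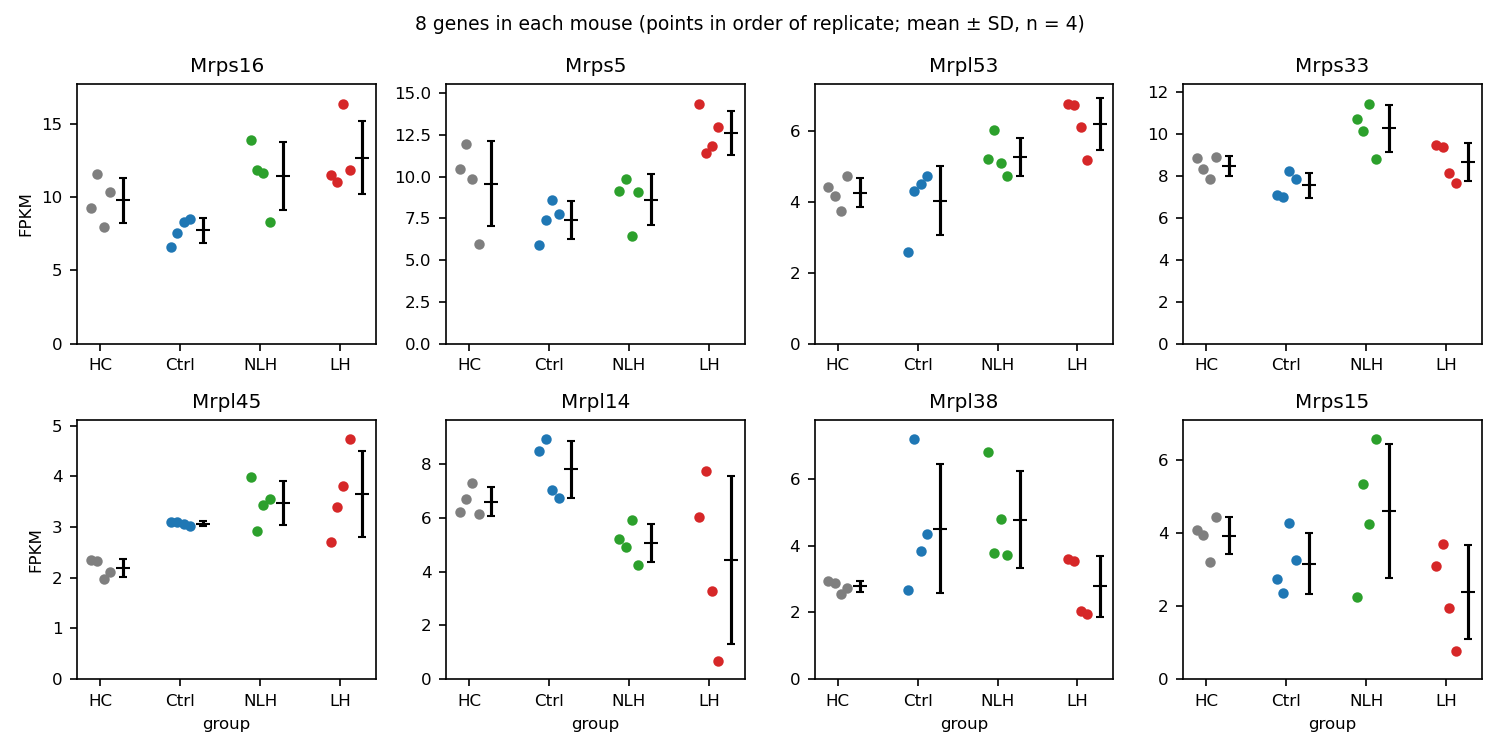
FPKM per mouse of 8 members in the 4 groups, with points for mice and bars for means ± SD (n = 4). Mrps16, Mrps5 and Mrpl53 were above all Ctrl mice in LH, Mrps33 was above all Ctrl mice in NLH, and Mrpl14 was at 0.661 in LH replicate 4.

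The 3 members with lower levels at the unadjusted threshold were Mrpl10 (-2.56 ± 0.98, limma adjusted p = 0.313), Mrpl14 (-1.23 ± 0.48, 0.317) and Mrpl38 (-0.65 ± 0.27, 0.369). Mrpl10 had 1.13, 1.44, 1.07 and 1.18 FPKM in Ctrl and 2.24 and then near 0 in the other 3 mice of LH. The unnamed transcripts of its locus had 9.09, 11.8, 10.2 and 9.31 FPKM in these LH mice, and with them the difference was 0.21 ± 0.11, in the other direction. For Mrpl14, LH replicates 1 and 2 (6.05 and 7.75) lay near the Ctrl values and replicates 3 and 4 (3.29 and 0.661) below them. Mrpl38 had 3.60, 3.55, 2.03 and 1.94 FPKM in LH, with replicates 3 and 4 again the lowest and the groups overlapping. Without LH replicates 3 and 4 the differences were -1.43 ± 1.15 for Mrpl10, -0.18 ± 0.15 for Mrpl14 and -0.24 ± 0.29 for Mrpl38. Leaving out LH replicate 4 alone gave -0.52 for Mrpl14, and leaving out Ctrl replicate 2 alone gave -0.40 for Mrpl38.

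LH vs. NLH compares mice that failed to escape with mice that escaped, all after the same inescapable shocks, and outcome and time under shock in the trials cannot be told apart. Most members had a lower estimate in LH, with 21 of 77 higher (27.3%, compared with 39.8% of all genes) and a median of -0.14 compared with -0.05. At an unadjusted p of 0.05, 1 member was higher and 6 were lower, 9.09% compared with 7.03% of all genes (2.98% higher and 4.05% lower). The count was 17 and 19 without LH replicate 1 or 2 (10.8% and 13.4% of all genes) and 4 without NLH replicate 3 or LH replicate 4 (5.81% and 9.59%). Groups did not overlap for 1 member that was higher, Mrps5 (0.92% of all genes), and for 2 that were lower, Mrpl38 and Mrpl40 (1.03%). Of the lower members, 4 were among the 20 of the large subunit specific to mitochondria. The direction of the median rested on LH replicates 3 and 4. Without them it was 0.10, compared with 0.16 for all genes, and 55 members were higher. At the unadjusted threshold 8 members then passed, all of them higher, where 17.3% of all genes passed.

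Mrpl38 had 6.83, 3.80, 4.82 and 3.72 FPKM in NLH, all above the 3.60, 3.55, 2.03 and 1.94 of LH (-0.78 ± 0.27, limma adjusted p = 0.601). Mrpl40 had 2.35, 2.60, 2.50 and 0.281 FPKM in LH, below the 2.80 to 4.45 of NLH (-1.12 ± 0.47, limma adjusted p = 0.670). Mrps15, of the small subunit, had 2.25, 5.36, 4.26 and 6.58 FPKM in NLH and 3.11, 3.72, 1.96 and 0.772 in LH, with overlap (-1.02 ± 0.39, limma adjusted p = 0.621). Without LH replicates 3 and 4 the differences were -0.37 ± 0.29 for Mrpl38, -0.44 ± 0.25 for Mrpl40 and -0.33 ± 0.32 for Mrps15. LH replicate 4 alone moved Mrpl40 to -0.43 and Mrps15 to -0.58 when it was left out. In the other direction, Mrpl34 had 7.23, 7.81, 10.3 and 6.40 FPKM in NLH and 10.6, 11.5, 11.7 and 7.17 in LH (0.36 ± 0.18), and Mrpl20 differed by 0.33 ± 0.20, or 0.22 without LH replicate 4. Neither passed the unadjusted threshold.

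Among the 258 transcripts of the members, none passed the adjusted threshold over all 80137 transcripts. The share of all transcripts that did was 0.0412% in LH vs. NLH, 0.0462% in LH vs. Ctrl, 0.0125% in NLH vs. Ctrl and 0.00374% in Ctrl vs. HC. At an unadjusted p of 0.05, 2 were higher and 7 lower in Ctrl vs. HC, where 3.45% of all transcripts passed (1.9% higher and 1.55% lower). In NLH vs. Ctrl 17 were higher and 1 lower, where 5.12% passed (3.01% and 2.1%), and 11 of the 17 were of a coding class. In LH vs. Ctrl 12 were higher and 18 lower, where 10.7% passed (4.16% and 6.54%), while for LH vs. NLH 4 were higher and 20 lower, where 8.72% passed (2.98% and 5.74%).

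The transcripts with the smallest p at a mean of at least 1 FPKM were coding ones and all were higher in LH vs. Ctrl. ENSMUST00000033934.4 of Mrps31, a small-subunit gene, had 1.70, 1.87, 2.31 and 2.06 FPKM in Ctrl and 3.56, 3.85, 2.98 and 2.79 in LH, without overlap (0.70 ± 0.16, limma adjusted p = 0.147). The others were ENSMUST00000061444.3, the single transcript of Mrps16 (limma adjusted p = 0.159), and ENSMUST00000113938.4 of Mrpl53 (limma adjusted p = 0.162). The smallest adjusted p of a member transcript was that of a processed transcript of Mrps10 of 405 bases, ENSMUST00000154039.1, named after its values had been seen. It had 0.347, 0.692, 1.44 and 0.711 FPKM in NLH, 0.783 to 1.11 in HC, and values at or near 0 in all 4 LH mice (LH vs. NLH limma adjusted p = 0.0671). Ctrl mice had 0.658, 0.231 and 0.550 FPKM and 1 mouse near 0, so they overlapped with both. Its share of the gene was 9.44%.

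The spread between LH mice was wider than in the other groups. The median SD of log2(FPKM + 0.1) between mice of a group was 0.47 over the members in LH, compared with 0.22 in NLH, 0.19 in Ctrl and 0.17 in HC. In genes within the same range of levels it was 0.37, 0.21, 0.15 and 0.16. The SD was larger in LH than in Ctrl for 67 of the 77 members, and for 90.6% of the protein coding genes with a mean of at least 1 FPKM. In LH replicate 4, 20 members (26.0%) lay more than 1 log2 unit below their mean over the 16 mice, compared with 14.995% of all genes and 12.9% of genes in the level range of the members. In LH replicate 3 there were 3 such members and in any other mouse at most 2. With unnamed transcripts added, the number in LH replicate 4 was 14. Processed transcripts carried 15.9% of the summed level of the members in LH replicate 4 and 7.30% to 10.7% in the other mice. Over all coding genes these shares were 5.87% and 4.53% to 5.07%. The 380-base transcript of Mrps12 alone was 9.66% of the members in LH replicate 4 (34.5 FPKM) and 3.17% to 5.42% in the other mice, and without it the processed share was 6.90% and 3.91% to 6.11%.

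Members varied together between mice, and other genes varied with them to a like extent. With group means removed, Pearson's r over the 16 mice between a member and the mean of the others had a median of 0.64 and was positive for 68 of 77 members (88.3%). For 9687 other coding genes in the same range of levels, r with the mean of the members had a median of 0.60 and was positive for 85.7%. Without LH replicates 3 and 4 the medians were 0.40 (69 members positive) and 0.38. These values are a description across mice whose values share library size. Mrpl30 (r = 0.96), Mrps34 (0.93) and Mrpl9 (0.92) followed the others most closely, and without the LH pair the values were 0.78, 0.64 and 0.52. The closest members were then Mrpl54 (0.85), Mrps6 (0.82) and Mrps24 (0.78), named after their values had been seen. Mrpl9 had 5.42, 5.44, 4.50 and 1.198 FPKM in LH and 3.57 to 4.51 in HC. The lowest values were those of Mrpl45 (-0.80), Mrps22 (-0.61) and Mrps35 (-0.60), whose highest values of all 16 mice were in LH replicate 4 (4.73, 6.75 and 8.55 FPKM), and without the LH pair these were -0.42, 0.06 and -0.13. Mrps35 is led by a processed transcript of 467 bases, which had 6.85 FPKM in LH replicate 4 and at most 2.74 in the other mice.

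Other genes of mitochondrial translation, taken from general knowledge, had no gene past the adjusted threshold in any comparison over the 16 mice. Of mitoribosome proteins with other names, 6 of 7 were measured, and Chchd1, a small-subunit protein, was the 1 at an unadjusted p of 0.05 in NLH vs. Ctrl (0.39 ± 0.17). It was again higher in LH vs. Ctrl (0.53 ± 0.17, limma adjusted p = 0.220), as was Ptcd3, also of the small subunit (0.27 ± 0.09), which was higher in LH vs. NLH too (0.22 ± 0.09). Without LH replicates 3 and 4 Ptcd3 had 0.17 and 0.12. Of the mitochondrial translation factors, 11 of 13 were measured. All 11 had estimates above 0 in NLH vs. Ctrl, those of Tufm and Guf1 at 0.00 and 0.01, with a median of 0.19 compared with 0.07 for all genes, of which 63.9% were above 0. At the unadjusted threshold 1 passed (4.99% of all genes were higher), the initiation factor Mtif2 (0.41 ± 0.17, limma adjusted p = 0.728). In LH vs. Ctrl 2 passed (8.18% of all genes were higher), Mtif2 (0.51 ± 0.17) and Mtif3 (0.89 ± 0.40), with 0.24 and 0.25 without the LH pair. Of 25 measured genes of mitoribosome assembly, 2 were higher in NLH vs. Ctrl at that threshold (4.99% of all genes) and none lower. In LH vs. Ctrl 1 was lower (3.58% of all genes) and in LH vs. NLH 2 were lower (4.05%), with none higher. Rmnd1 had 4.05, 4.58, 4.04 and 5.54 FPKM in Ctrl, 4.41, 6.81, 4.64 and 5.37 in NLH and 3.83, 3.25, 3.16 and 2.36 in LH, where all mice were below those of Ctrl and NLH. Its differences were -0.53 ± 0.16 in LH vs. Ctrl (limma adjusted p = 0.213) and -0.73 ± 0.16 in LH vs. NLH (limma adjusted p = 0.287), or -0.35 and -0.56 without the LH pair. Of 16 mitochondrial aminoacyl-tRNA synthetases none passed in NLH vs. Ctrl (median 0.00). In LH vs. Ctrl 2 synthetases were higher at that threshold, Nars2 (0.56 ± 0.23) and Yars2 (0.34 ± 0.14), where 8.18% of all genes were higher, and Nars2 was also higher in LH vs. NLH (0.57 ± 0.23). Without the LH pair Nars2 had 0.18 and 0.19. Of 21 measured genes of mitochondrial transcription, RNA processing and genome maintenance, 1 was higher in NLH vs. Ctrl (4.99% of all genes). In LH vs. Ctrl 2 were higher (8.18% of all genes) and 1 lower (3.58%). Of these Mterf1a (0.86 ± 0.21, limma adjusted p = 0.130) passed after adjustment without the LH pair (0.93, limma adjusted p = 0.0258), where 8.10% of all genes did. No mRNA of the mitochondrial genome was among the transcripts analysed here.

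Gabpa, which encodes the ETS subunit of GABP, was the 1 of 10 nuclear activators of mitochondrial genes that passed unadjusted in NLH vs. Ctrl (5.96% of all genes) and in LH vs. Ctrl (11.8%). It had 2.14, 2.33, 2.09 and 2.14 FPKM in Ctrl, 4.19, 3.20, 4.37 and 2.99 in NLH, 4.23, 3.64, 3.72 and 2.91 in LH and 2.25, 1.90, 2.12 and 2.37 in HC. All NLH and LH mice were above all Ctrl and HC mice, and 5.46% and 4.84% of all genes were higher without overlap in NLH vs. Ctrl and in LH vs. Ctrl. The difference was 0.72 ± 0.15 in NLH vs. Ctrl (limma adjusted p = 0.252) and 0.70 ± 0.15 in LH vs. Ctrl (limma adjusted p = 0.122), and neither passed after adjustment. Without the LH pair the difference in LH vs. Ctrl was 0.82 and passed (limma adjusted p = 0.0188), where 8.10% of all genes did. Esrra passed unadjusted in Ctrl vs. HC (0.45 ± 0.16, 2.64% of all genes), with 3.403 to 4.22 FPKM in HC and 4.74 to 5.69 in Ctrl. Nrf1 had 3.65 to 4.37 FPKM in Ctrl and 3.30 to 4.09 in NLH, which overlapped.

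Other large gene groups were counted in the same way for NLH vs. Ctrl, where 63.9% of all genes had higher estimates and 4.99% passed as higher. Of 78 cytosolic ribosomal protein genes, 67 had higher estimates and 20 passed unadjusted, with a median of 0.21. Of 81 nuclear-encoded subunits of the respiratory chain, 67 had higher estimates and 11 passed, with a median of 0.16. In LH vs. NLH, 10 of the 78 cytosolic genes were lower at that threshold and none higher (median -0.19), and 3 of the 81 respiratory chain genes were lower (median -0.09), compared with 4.05% of all genes. The medians of the members in these comparisons were 0.16 and -0.14, and differences between the lists were not tested.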

How the data were processed

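The hippocampal RNA of 16 mice, 4 per group, was taken as deposited, in FPKM per transcript, with groups from the labels and 1 column per mouse (0 columns without a mapped mouse). According to the methods the authors aligned reads to mm10 with HISAT2, merged transcripts over all samples with StringTie and computed FPKM with Cufflinks; the submitters' processing notes name STAR 2.42a and StringTie 1.2.3. Which aligner was used could not be settled. Strandedness was not given in the sources used here. No scaling of FPKM between mice by the authors is stated in the sources used here, and read counts were not used, so no counting intervals are given. Estimated depth was 20180000 to 38060000 fragments per mouse.

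FPKM of transcripts of protein coding genes were summed per gene name. Limma 3.58.1 (R 4.3.3, trend and robust) compared 4 group means of log2(FPKM + 0.1), over the 16 mice together, in place of the methods' equal-variance test on FPKM, with Benjamini-Hochberg adjustment over 14785 genes or 80137 transcripts. The fit was tested on simulated data. Single genes were also compared by exact two-sided permutation tests. Transcript classes and positions came from GENCODE vM21, where 241 of 258 member transcripts matched with version and 17 without. Copies were searched with BLAST 2.17.0. Other steps used Python 3.11.15, pandas 2.3.3, numpy 2.4.6, scipy 1.17.1, matplotlib 3.10.9 and, in R, data.table in version 1.17.8.

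The members and gene lists were chosen with earlier results of these data known. Named genes were the 5 highest and 5 lowest in HC, the 3 smallest p in each direction of each comparison, Mrps18a, Mrps18b, Mrps18c, Mrps30 and Mrps36, the 3 transcripts of smallest p with a mean of at least 1 FPKM, and the 3 highest and 3 lowest r with the other members. Alternatives changed the value added before the logarithm, the filter, the scaling, the transcripts summed, the mice and the test.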

Additional observations from a re-analysis of the deposited data

Results flagged for a closer look

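Values were looked at in 156 groups of 4 mice, and in 14 of them 1 mouse lay farther from the other 3 than the spread of those allowed by Dixon's criterion at the 95% level. Chance flags about 1 group in 20. In 2 of the 14 the other 3 mice were tied at 0, where any other value meets the criterion, so only the remaining 12 can be set against that rate. Of the 14, 5 were in LH, 3 of these in LH replicate 4. The number of members more than 1 log2 unit below their mean was 20 in LH replicate 4 (0 to 3 in the other LH mice), 2 in NLH replicate 1 and 1 in HC replicate 2, and the other mice of NLH and HC were those tied at 0. The large-subunit genes with a bacterial counterpart summed to 155 FPKM in HC replicate 3 and to 176 to 178 in the other HC mice.

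Among single genes, LH replicate 1 had 2.24 FPKM of Mrpl10 with the others near 0, and LH replicate 4 had 0 FPKM of Mrps28 with the others at 1.82 to 2.17. Mrps21 was at 17.9 in NLH replicate 1 (others 23.2 to 23.8), Mrps11 at 4.53 in Ctrl replicate 3 (3.34 to 3.45) and Mrps16 at 16.4 in LH replicate 3 (10.99 to 11.8). Mrpl20 was at 2.06 in NLH replicate 1 (2.35 to 2.38) and Mrps22 at 3.05 in HC replicate 1 (3.84 to 3.86). Mrpl40 had such a mouse in 3 groups, at 3.74 in HC replicate 2, 1.67 in Ctrl replicate 3 and 0.281 in LH replicate 4.

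A signal also appeared outside the named transcripts. Unnamed assembled transcripts at 24 member loci summed to a mean of 31.6 FPKM in NLH, and all 4 NLH mice were above the 25.2 to 28.5 FPKM of Ctrl. In LH the sums were 34.4, 33.2, 24.7 and 58.1.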

How the results depend on the processing

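No member passed the adjusted threshold in Ctrl vs. HC or LH vs. NLH under any alternative tried, and of 646 values of named genes under alternatives 639 kept their direction and their side of the threshold. The counts at an unadjusted p of 0.05 were less stable, and are given with the share of all genes that passed under the same setting in parentheses. In Ctrl vs. HC the 3 members became 5 without LH replicates 3 and 4 (6.62%), 10 with only the 2 groups compared (9.67%), 8 with size factors and without LH replicates 3 and 4 (8.25%), and 5 by the equal-variance test on FPKM (9.31%). In NLH vs. Ctrl the 7 became 16 (13.2%), 15 (11.3%), 15 (12.9%) and 12 (10.45%) in that order, and 11 with unnamed transcripts added (6.55%). The adjusted count became 1 (Mrpl14, -0.69) with size factors over all 16 mice and LH replicates 3 and 4 left out (0.284%). In LH vs. Ctrl the 12 became 22 without LH replicates 3 and 4 (28.1%), 6 with size factors and without them (12.4%) and 6 by the equal-variance test (8.08%), and the adjusted count became 7 without the LH pair, where 8.10% of all genes passed (Mrpl51, Mrps31, Mrpl53, Mrps27, Mrpl30, Mrpl9 and Mrpl19), with a median of 0.28. Mrpl53 then had 0.77, and 0.72 without LH replicate 4 alone. In LH vs. NLH the 7 became 13 with size factors (10.7%), 3 with only the 2 groups (3.03%) and 1 by the equal-variance test (3.06%). Without the LH pair the count was 8 (17.3%) and the median 0.10, and with size factors as well the count was 9 (9.59%). Transcripts past the adjusted threshold became 1 in LH vs. Ctrl with size factors (Mrps31), and in LH vs. NLH 2 with 0.01 added to FPKM (Mrps10 and Mrpl40) and 1 without the LH pair (Mrpl22). Among the genes named in each comparison, the direction turned with coding classes alone for Mrps14 in Ctrl vs. HC (0.38) and Mrps11 in NLH vs. Ctrl (0.095), and with unnamed transcripts added for Mrpl10 in NLH vs. Ctrl (0.11) and LH vs. Ctrl (0.21). Over the 24 loci with unnamed transcripts and the 4 comparisons, 14 of 96 values turned when these were added, 11 of them in comparisons with LH. Further examples among the 14 were Mrpl10 in LH vs. NLH (-1.47 to 0.11) and Mrps28 in LH vs. Ctrl (-1.04 to 0.81) and LH vs. NLH (-0.92 to 0.93). Mrps36 turned in LH vs. Ctrl (-0.30 to 0.16) and Ctrl vs. HC (-0.20 to 0.09). These examples are not the full list. The causes were not tested.

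With each mouse left out in turn, the unadjusted counts ranged from 1 to 4 in Ctrl vs. HC, 3 to 14 in NLH vs. Ctrl, 10 to 19 in LH vs. Ctrl and 4 to 19 in LH vs. NLH. Over the same fits 1.88% to 4.66%, 4.02% to 10.02%, 8.70% to 18.9% and 5.21% to 13.4% of all genes passed. The count was 1 in Ctrl vs. HC without HC replicate 1 (2.18%), HC replicate 2 (1.88%) or Ctrl replicate 2 (2.15%). In NLH vs. Ctrl it was 3 without Ctrl replicate 1 (4.02%) or NLH replicate 2 (4.38%), 11 without NLH replicate 4 (7.99%) and 14 without LH replicate 4 (10.02%). In LH vs. Ctrl it was 19 without LH replicate 2 (16.5%), and in LH vs. NLH it was 17 and 19 without LH replicates 1 (10.8%) and 2 (13.4%) and 4 without NLH replicate 3 (5.81%) or LH replicate 4 (9.59%). The difference of Mrps11 in NLH vs. Ctrl was -0.13 without Ctrl replicate 3 and -0.23 with it. The adjusted count in LH vs. Ctrl ranged from 0 to 2, with 2 without LH replicate 4 (Mrpl51 and Mrpl53, where 1.68% of all genes passed). Adjusted transcripts ranged from 0 to 1 in LH vs. Ctrl (Mrps7 without LH replicate 2) and in LH vs. NLH (Mrps10 without Ctrl replicate 4 or NLH replicate 1, Mrps7 without LH replicate 2).

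Mice with the same number did not vary together. The median r was -0.03 over 24 same-numbered pairs, of which 3 were over 0.1, so the numbers were not taken as a pairing. With the replicate number as a block, the unadjusted count was 2 in Ctrl vs. HC and 7 in NLH vs. Ctrl, and 0 members passed the adjusted threshold in these. In LH vs. Ctrl the unadjusted count was 11 with the block and 12 without it, and in LH vs. NLH it was 5 and 7. Again 0 members passed the adjusted threshold. Depth limits the lowest members most: Mrps36 had a median of 9.97 estimated fragments per mouse, and 68 of 77 members had at least 50.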
